A study of Oryza sativa with 8 samples.

Results

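OsChz1 peaks near the chromosome ends were taken as the peaks of the anti-MYC ChIP-seq (chromatin immunoprecipitation followed by sequencing) of COM1 rice seedlings whose midpoint lay within 2 Mb of a chromosome end. An end was counted from base 1 of the chromosome (base-1 end) or from the last base covered by a peak in any of the 3 deposited lists (far end). The base-1 ends of chromosomes 4, 9 and 10 were left out, which left 9 base-1 ends and 12 far ends. In all, 1246 of the 11356 COM1 peaks lay in these 21 ends, 470 in base-1 ends and 776 in far ends. The other 10103 peaks on the 12 chromosomes, 205 of them in the 3 base-1 ends left out, served for comparison, and 7 peaks on the unplaced sequence ChrSy were not used.

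All plants were rice (Oryza sativa) seedlings of 30 days grown in long days, with 14 h of light at 30 °C and 10 h of darkness at 28 °C. COM1 carried MYC-tagged OsChz1, driven by its native promoter, in the oschz1-1 background, which itself is a CRISPR-made mutant of OsChz1. COM1 is 1 complemented line, so the peaks describe that line. The oschz1-1 mutant without the transgene has no tagged protein, and its anti-MYC peaks give the background of the antibody. A deposited list named Up holds the regions with more signal in COM1 than in the mutant, and a COM1 peak was counted as in this list when it shared at least 1 bp with one of its regions. Of the end peaks, 463 were in the Up list, against 42.8% of all COM1 peaks, and 19 overlapped an oschz1-1 peak, against 0.986% of all COM1 peaks. Of all 11356 COM1 peaks, 4865 were in the Up list. The paper counts equally many OsChz1-occupied peaks, with the mutant used to eliminate background signal. The Up list may therefore be that set, which was not tested. It leaves out 783 of the 1246 end peaks, which are called OsChz1 peaks here only as members of the COM1 list. Both genotypes had 2 anti-MYC libraries and 2 input libraries prepared without antibody, 8 libraries in all. The lists held positions only, with no peak height, depth or replicate, so that no error between replicates could be given. Intervals on counts and shares of single ends cover counting error, and the fits take the spread between 2 Mb windows of 1 list as their error. Those windows are not biological replicates.

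OsChz1 is a rice histone chaperone of the CHZ family, a group first described in budding yeast for its preference for dimers of the histone variant H2A.Z with H2B. In plants, H2A.Z is a variant found mainly in nucleosomes of euchromatin, often at the start of genes. The ends of most rice chromosome arms are gene-rich and recombine often, with telomere repeats at their tips, whereas the short arms of chromosomes 4, 9 and 10 are rich in heterochromatin. The files gave no gene names, and a genome of their build (MSU7) was not used here. The peaks are therefore described by position alone, in coordinates of that build counted from 1.

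The ends taken as a group were about as densely occupied as the rest of the genome. They held 29.7 peaks per Mb (95% Poisson interval 28.0 to 31.4, 42 Mb) against 30.6 (30.0 to 31.2, 330.7 Mb) elsewhere. In a quasi-Poisson fit over all 2 Mb windows the ratio of ends to other windows was 0.97, with a 95% interval of 0.87 to 1.08 that includes 1. Peaks covered 1.21% of the ends and 1.16% of the other sequence. The 3 base-1 ends left out had 34.2 peaks per Mb (29.6 to 39.2), from 61 peaks on chromosome 9 to 80 on chromosome 4.

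Single ends differed from each other by more than the group differed from the rest. An end held 59.3 ± 15.6 peaks (SD, n = 21 ends), from 34 to 96, with a variance 4.10 times the mean. The 158 complete 2 Mb windows outside the ends held 60.8 ± 13.5 peaks, from 17 to 92, with a variance 2.99 times the mean. Both sets of windows thus varied by more than the variance of 1 times the mean that Poisson counting gives. Of the 21 ends, 7 lay above the upper quartile of the other windows (68.75 peaks) and 7 below the lower quartile (53 peaks). Compared with the rest of its own chromosome, the Poisson interval of the end lay above the rest in 4 ends and below it in 5. The occupied and empty stretches behind these counts are seen in the map of peak positions along each end.

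**Figure D1:**
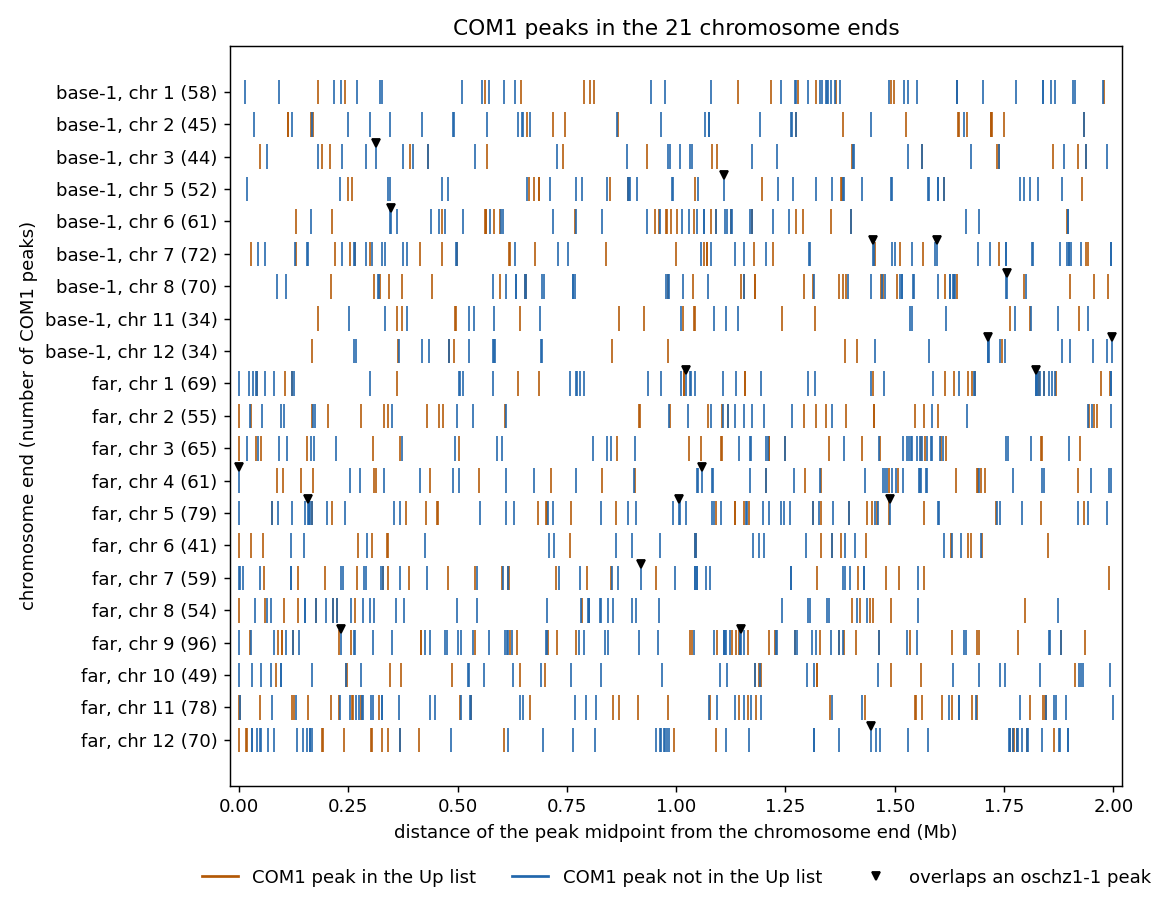
Each row is 1 chromosome end, with the number of its COM1 peaks in parentheses, and each tick is the midpoint of a peak plotted by its distance from the end in Mb. Ticks are orange for the 463 peaks in the Up list and blue for the other 783, and black triangles mark the 19 peaks that overlap an oschz1-1 peak. The rows differ in the number of ticks, from 34 to 96, and most rows hold both runs of close ticks and long empty stretches.

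The far end of chromosome 9 was the densest end. It held 96 peaks, or 48.0 per Mb (38.9 to 58.6), which was 1.58 times the density of the rest of chromosome 9 and more than in any of the 158 other windows. In steps of 0.5 Mb from the end inwards it held 24, 22, 36 and 14 peaks. Peaks covered 19.7 kb per Mb there, the median gap between neighbours was 8346 bp, and 37 of its peaks were in the Up list (38.5%). The far end of chromosome 5 came next with 79 peaks, or 39.5 per Mb (1.42 times the rest of its chromosome), and the far end of chromosome 11 held 78. Of the other windows, 14 held more peaks than the far end of chromosome 5.

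The base-1 ends of chromosomes 11 and 12 were the sparsest, with 34 peaks each. This gave 17.0 peaks per Mb (11.8 to 23.8) in both, 0.56 times the rest of chromosome 11 and 0.63 times the rest of chromosome 12. Of the 158 other windows, 5 held fewer. As background, the outer parts of these chromosome arms are known to share a long duplicated segment. The authors removed reads of low mapping quality, and whether that affected the counts of these ends was not tested. In steps of 0.25 Mb from base 1, chromosome 11 held 1, 7, 5, 2, 8, 1, 3 and 7 peaks, and chromosome 12 held 1, 10, 6, 2, 0, 3, 6 and 6. Over the first 4 steps no step differed by more than 3 peaks, and the next differed most, 8 peaks against none. That empty step on chromosome 12 lies within a stretch of 404242 bp without a COM1 peak (chr12:981788-1386029), the second longest gap inside an end. The share of peaks in the Up list was 16 of 34 on chromosome 11 (47.1%, 95% Wilson interval 31.5 to 63.3) and 10 of 34 on chromosome 12 (29.4%, 16.8 to 46.2), with intervals that overlap. The opposite, far ends of these chromosomes were dense, with 78 and 70 peaks.

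**Figure D2:**
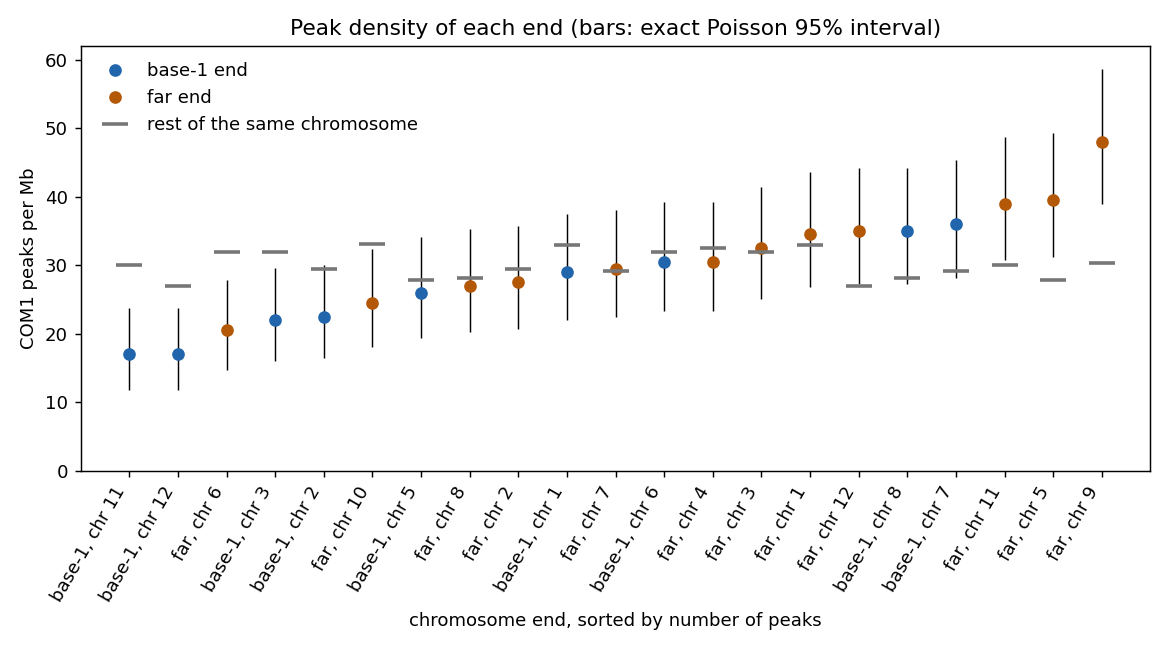
COM1 peaks per Mb in each of the 21 ends, sorted by their number of peaks, with exact Poisson 95% intervals as vertical bars (counting error only). Blue points are base-1 ends, orange points far ends, and grey dashes the rest of the same chromosome. The base-1 ends of chromosomes 11 and 12 (17.0 per Mb) and the far end of chromosome 9 (48.0 per Mb) lie at the extremes, with intervals that exclude the rest of their chromosome.

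The remaining 16 ends held from 41 to 72 peaks. After the sparsest pair came the far end of chromosome 6 with 41 peaks, the base-1 ends of chromosomes 3 and 2 with 44 and 45, and the far end of chromosome 10 with 49. On the dense side, the base-1 ends of chromosomes 7 and 8 held 72 and 70 peaks and the far end of chromosome 1 held 69. Neighbours in this order had overlapping Poisson intervals throughout, whereas the intervals of the sparsest pair did not overlap those of the 3 densest ends.

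**Figure D3:**
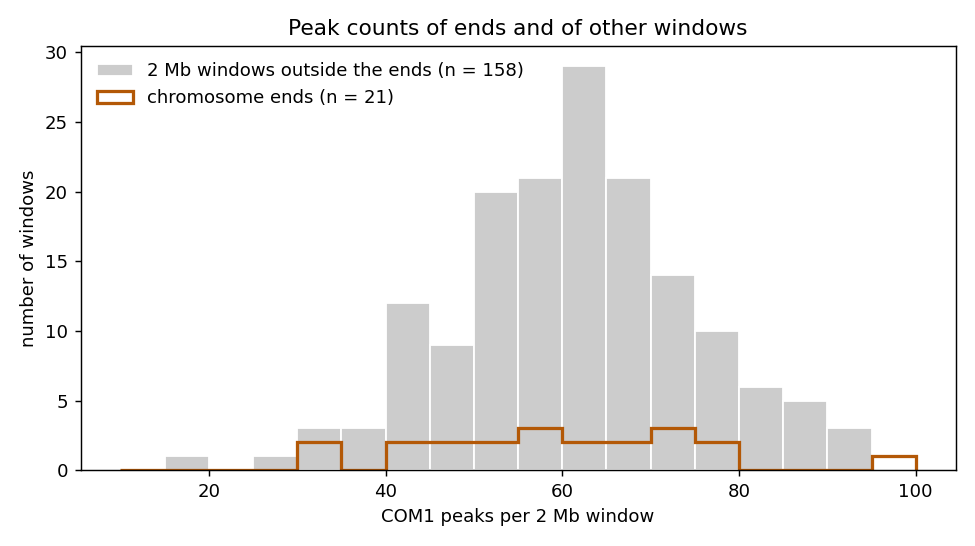
Histogram of COM1 peaks per 2 Mb window, in classes of 5 peaks, for the 158 complete windows outside the ends (grey) and the 21 ends (orange outline). The ends spread over most of the range of the other windows (17 to 92 peaks), and 1 end, with 96 peaks, lies above it.

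Base-1 ends together held fewer peaks per Mb than far ends. The density was 26.1 (Poisson interval 23.8 to 28.6) in base-1 ends and 32.3 (30.1 to 34.7) in far ends, with intervals that do not overlap but cover counting error only. The comparison leaves out 3 base-1 ends, which together had 34.2 peaks per Mb (29.6 to 39.2). They had 30.5 on chromosome 9, 32.0 on chromosome 10 and 40.0 on chromosome 4, so that counting them would raise the base-1 density. Single ends varied by more than counting, with SDs of 7.07 over 9 base-1 ends and 7.49 over 12 far ends, and the difference was not tested. Far ends held more peaks on 6 of the 9 chromosomes with both ends included, and base-1 ends more on 3 (chromosomes 6, 7 and 8). Against the rest of their own chromosome, 2 of 9 base-1 ends and 7 of 12 far ends were denser. The kinds of end are not measured alike, since a far end begins by construction at a peak and a base-1 end at the first base. Measured from the start of their first COM1 peak, an alternative chosen after seeing the data, the base-1 ends held 27.7 peaks per Mb (25.3 to 30.2). Widths and Up shares were close in both kinds of end, with median widths of 329 bp at base-1 ends and 328.5 bp at far ends, and 36.8% and 37.4% of peaks in the Up list.

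The outermost COM1 peak of a base-1 end lay between 13.2 and 180.7 kb from base 1. On chromosome 1 it was chr1:12991-13364, on chromosome 5 chr5:17138-17436 and on chromosome 7 chr7:27373-27655, all within 30 kb of base 1 by position. Those of chromosomes 2 and 3 were chr2:33312-33560 and chr3:48012-48315, and that of chromosome 8 was chr8:86677-87530, the broadest of the 9 at 854 bp. The outermost peaks of chromosome 6 (chr6:130089-130379), chromosome 12 (chr12:166131-166339) and chromosome 11 (chr11:180356-180951) lay more than 100 kb inside. Those of chromosomes 3, 6, 7, 11 and 12 were in the Up list and the other 4 were not. At the far ends the outermost COM1 peak set the end itself on 11 chromosomes. On chromosome 4 the end was set by an oschz1-1 peak (chr4:35500943-35501157) that overlaps the outermost COM1 peak (chr4:35499879-35501116).

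Within the far ends, the 0.5 Mb next to the outermost 0.5 Mb held fewer peaks than the steps on either side. The far ends together held 232 peaks in the outermost step, or 38.7 per Mb (33.9 to 44.0), and 149 in the next, or 24.8 per Mb (21.01 to 29.16). The step from 1 to 1.5 Mb held 36.5 per Mb (31.8 to 41.7), and those from 2 to 2.5 Mb and from 5.5 to 6 Mb held 35.2 and 36.3. The outermost step was thus like several inner ones. The second step was the lowest, but the step from 4.5 to 5 Mb was close to it, at 25.7 per Mb (21.8 to 30.1). The outermost step held more peaks than the next in 12 of 12 far ends, for instance 28 against 15 on chromosome 11, 27 against 13 on chromosome 12 and 14 against 13 on chromosome 1. Because a far end starts at a peak, the count was repeated without the outermost peak of each, and the outermost step then held more in 11 of 12 far ends and the same number on chromosome 1. Base-1 ends differed, with 107 peaks in the outermost step, or 23.8 per Mb (19.5 to 28.7), and 108 in the next, and with more in the outermost step in 5 of 9. When base-1 ends were measured from their first peak, the counts were 127 and 117, again with more in the outermost step in 5 of 9. This comparison was picked after its values were seen and was not tested.

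Over the 12 steps from the end to 6 Mb inside, the density of all 21 ends went up and down without a steady trend. It was 32.3 peaks per Mb in the first step and 24.5 in the second, then 33.3, 28.6, 34.6 and 26.5. From 3 to 6 Mb inside it stayed between 24.9 and 33.1. The belts from 2 to 4 Mb and from 4 to 6 Mb inside the same ends held 30.0 and 29.4 peaks per Mb, against 29.7 in the outer 2 Mb, with Poisson intervals of 28.4 to 31.8, 27.7 to 31.0 and 28.0 to 31.4.

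**Figure D4:**
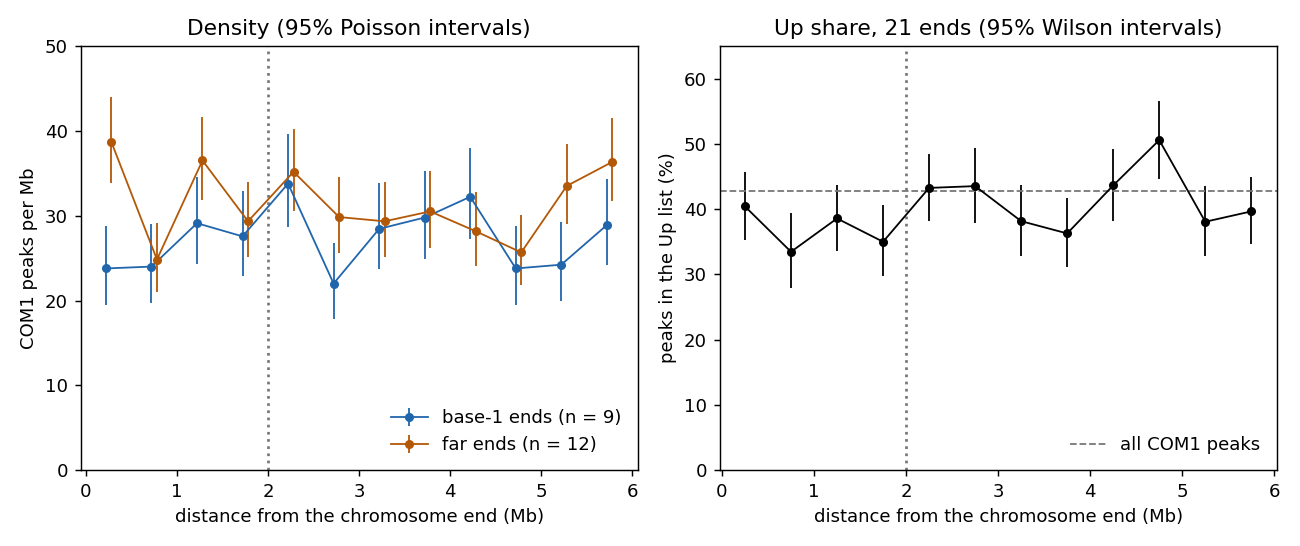
Left, COM1 peaks per Mb in steps of 0.5 Mb by distance from the chromosome end, for 9 base-1 ends (blue) and 12 far ends (orange), with Poisson 95% intervals. Right, the percentage of COM1 peaks in the Up list in the same steps over the 21 ends, with Wilson 95% intervals, and the 42.8% of all COM1 peaks as a dashed line; the dotted line in both is the 2 Mb limit. The far ends start at 38.7 peaks per Mb, with 24.8 in the next step and 36.5 in the one after, and the Up share lies below the dashed line in the 4 steps within 2 Mb and in 4 of the 8 steps beyond.

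Fewer of the end peaks than of the other peaks were in the Up list. They were 463 of 1246 at the ends (37.2%, 34.5 to 39.9), against 4400 of 10103 other peaks (43.6%, 42.6 to 44.5) and 42.8% of all COM1 peaks. In the quasi-binomial fit over windows the odds of being in the Up list at the ends were 0.77 times those elsewhere (0.67 to 0.88, n = 21 end and 170 other windows, adjusted p = 0.00146 over 6 fits). The odds ratio lay between 0.72 and 0.81 when each chromosome was left out in turn. Against the adjacent belts from 2 to 4 Mb inside the same ends alone, however, it was 0.87 (0.72 to 1.07), so that the ends were not told apart from their neighbouring sequence. By distance, the Up share was 37.2% in the outer 2 Mb, 40.3% (37.7 to 43.1) from 2 to 4 Mb and 42.6% (39.8 to 45.4) from 4 to 6 Mb, with intervals of adjacent belts that overlap. The 3 base-1 ends left out had 97 of 205 peaks in the Up list (47.3%, 40.6 to 54.1).

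The lower Up share was spread over many ends. The share was 37.3 ± 7.39% per end (SD, n = 21 ends) and was below that of the rest of the same chromosome in 15 ends. It was lowest at the base-1 end of chromosome 5, with 14 of 52 peaks (26.9%), followed by the base-1 end of chromosome 1 with 16 of 58 (27.6%), the far end of chromosome 8 with 15 of 54 (27.8%) and the far end of chromosome 12 with 20 of 70 (28.6%). It was highest at the far end of chromosome 2, with 29 of 55 (52.7%, 39.8 to 65.3), where the rest of the chromosome had 38.5%. The interval of 5 ends lay wholly below the share of other peaks and that of 0 ends above it. Ends with the most peaks did not stand out, since the far ends of chromosomes 9, 5 and 11 had 38.5%, 35.4% and 46.2% in the Up list.

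**Figure D5:**
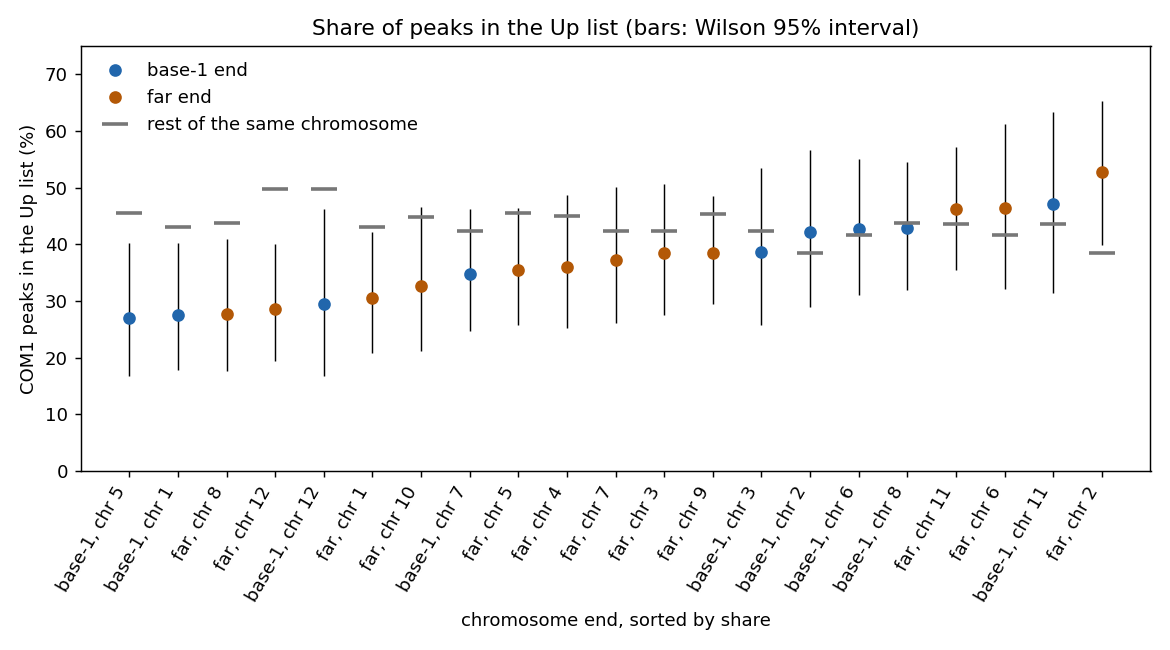
Percentage of COM1 peaks in the Up list at each of the 21 ends, sorted by that percentage, with Wilson 95% intervals (counting error only) and the rest of the same chromosome as grey dashes. Blue points are base-1 ends and orange points far ends. In 15 of 21 ends the point lies below the dash, and the range is 26.9% to 52.7%.

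End peaks were slightly wider than other peaks. Their median width was 329 bp (interquartile range 250 to 483) against 316 bp (246 to 441) elsewhere, and no COM1 peak was narrower than 201 bp. The geometric mean width was 1.05 times that of other peaks (1.02 to 1.09, weighted least squares over windows, n = 21 and 170, adjusted p = 0.00459 over 6 fits), and leaving out any 1 chromosome gave 1.04 to 1.06. Against the belts from 2 to 4 Mb the ratio was 1.01 (0.97 to 1.06), and the median there was 332 bp, so that this difference too was not particular to the outer 2 Mb. From 4 to 6 Mb inside, the median was 312 bp. The wider classes took a larger share at the ends, with 17.3% of end peaks and 13.5% of other peaks between 500 and 800 bp, and 6.02% (4.83 to 7.48) and 4.91% (4.50 to 5.35) at 800 bp or more. Median widths of single ends ran from 288 bp at the far end of chromosome 6 to 381 bp at the far end of chromosome 10, and 12 ends had a higher median than the rest of their chromosome and 8 a lower one.

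The Up share of end peaks was below that of other peaks in each of 6 width classes, with intervals that overlap in all but the class from 250 to 300 bp. Of end peaks from 250 to 300 bp, 34.0% (27.9 to 40.6) were in the Up list, against 45.4% (43.2 to 47.6) elsewhere. Of those from 400 to 500 bp it was 32.1% (25.5 to 39.6) against 41.6% (38.9 to 44.3). At 800 bp or more the shares were 44.0% (33.3 to 55.3) and 50.2% (45.8 to 54.6), with intervals that overlap. Within the ends, the 463 peaks in the Up list had a median of 335 bp and the 783 others 325 bp.

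The broad end peaks were unevenly placed. There were 75 of 800 bp or more in 20 of the 21 ends, with 7 each at the base-1 end of chromosome 6 and the far ends of chromosomes 1, 2, 4 and 9, and the base-1 end of chromosome 11 was the end without one. The widest end peak was chr7:29130540-29132309 at 1770 bp, the 6th widest of all COM1 peaks. It was followed by chr2:35848045-35849772 (1728 bp), chr1:42579388-42581027 (1640 bp), chr12:27122763-27124329 (1567 bp) and chr11:27451316-27452860 (1545 bp). These 5 peaks all lay in far ends, which held 776 of the 1246 end peaks. All 5 were in the Up list, against 33 of the 75 end peaks of 800 bp or more (44.0%). None of the 5 overlapped an oschz1-1 peak, against 1.52% of all end peaks that did. The distances of the 5 from the end were 478.4, 27.2, 637.6, 369.3 and 1562 kb.

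Spacing at the ends was like that elsewhere. The median gap between neighbouring peaks was 15667 bp (interquartile range 3886 to 45550) against 16308 bp (4420.5 to 42888.5). Gaps under 5 kb made up 346 of 1225 gaps (28.2%, 25.8 to 30.8), against 2708 of 10091 (26.8%, 26.0 to 27.7), with an odds ratio of 1.07 (0.92 to 1.26) that includes 1. Its direction turned with the size of the end, with 0.87 for ends of 1 Mb. For ends of 5 Mb it was 1.12 (1.008 to 1.245), an unadjusted interval that excludes 1. Single ends ranged from 15.2% of gaps under 5 kb at the base-1 end of chromosome 11 to 42.03% at the base-1 end of chromosome 8. Gaps under 1 kb were 139 of the 1225 (11.3%, 9.69 to 13.2), against 9.78% (9.22 to 10.4) elsewhere.

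Both crowded and empty stretches occurred within the ends. The densest 100 kb held 17 peaks at the far end of chromosome 3 (chr3:34792927-34892164), of which 4 were in the Up list and which together covered 5335 bp. The longest gap between neighbouring peaks was 421799 bp at the far end of chromosome 7 (chr7:27619979-28041777), beside 402289 bp for the longest gap wholly outside the ends. The longest gap of an end was never shorter than 90619 bp and exceeded 200 kb in 10 of the 21 ends. Runs of at least 4 peaks with gaps under 5 kb numbered 24 and took in 106 end peaks (8.51%, 7.08 to 10.2), against 8.76% (8.22 to 9.33) of other peaks. The largest such run in an end, singled out after its values were seen, had 7 peaks at chr8:1625649-1643218, and the largest elsewhere had 11.

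Width and Up share were also set beside the distance to the nearest neighbour. The 660 end peaks with no neighbour within 5 kb had a median width of 320 bp and 37.3% were in the Up list. The 326 with the nearest neighbour at 1 to 5 kb had 346 bp and 35.0%, and the 260 with a neighbour under 1 kb had 335 bp and 39.6%, with intervals on the shares that overlap. Of the 139 pairs of end peaks under 1 kb apart, both members had the same Up status in 75 (54.0%, 45.68 to 62.03), against 55.9% (52.8 to 59.0) elsewhere. The largest gap in Up share between end peaks and other peaks was among those with a neighbour at 1 to 5 kb, 35.0% (30.0 to 40.3) against 44.7% (42.9 to 46.6). Those with no neighbour within 5 kb had 37.3% (33.7 to 41.0) against 44.3% (43.0 to 45.7), and those with a neighbour under 1 kb 39.6% against 39.4%. Whether the difference depends on the neighbour was not tested.

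The mutant had few peaks, both at the ends and elsewhere. In oschz1-1, 26 peaks lay in the ends, or 0.62 per Mb (0.40 to 0.91), against 144 or 0.44 per Mb elsewhere. The ratio over windows was 1.42 (0.92 to 2.21), an interval that includes 1. It was 2.00 (1.02 to 3.92) against the belts from 2 to 4 Mb and 1.63 (1.099 to 2.415) with the 3 ends left out counted as ends, and it turned to 0.83 and 0.89 for ends of 1 and 5 Mb. There were 15 ends with at least 1 oschz1-1 peak and 6 with none, and no end held more than 3. Of the 26, 19 lay on a COM1 peak (73.1%, 53.9 to 86.3), against 92 of 144 elsewhere (63.9%, 55.8 to 71.3). The widest were chr5:28831042-28831625 (584 bp, on a COM1 peak), chr7:29388383-29388825 (443 bp, on none) and chr4:34440794-34441214 (421 bp, on a COM1 peak).

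Counted from the COM1 side, 19 end peaks overlapped an oschz1-1 peak (1.52%, 0.98 to 2.37), against 93 other peaks (0.92%, 0.75 to 1.13) and 0.986% of all COM1 peaks. The odds ratio was 1.67 (1.02 to 2.72, n = 21 and 170 windows, adjusted p = 0.0810 over 6 fits), which did not pass the threshold of 0.05 after adjustment. Its unadjusted interval included 1 when chromosome 1, 4, 5, 7, 9 or 12 was left out, and the ratio was lowest, at 1.46 (0.84 to 2.52), without chromosome 5, which held 4 of the 19 peaks. With ends of 1 Mb the ratio was 1.02 (0.45 to 2.32). None of the 19 was in the Up list, and outside the ends 6 of 93 were. The Up list holds regions with more signal in COM1 than in the mutant, so that lying in it and overlapping an oschz1-1 peak are not independent measures. How the list was made is not known, and why none of the 19 was in it was not tested. These 19 were wider than the others, with a median of 631 bp against 326 bp for the other 1227 end peaks. Outside the ends the medians were likewise 507 bp for the 93 peaks with an oschz1-1 peak and 315 bp for those without. They lay in 12 ends, and those at the far ends of chromosome 4 (chr4:35499879-35501116) and chromosome 1 (chr1:41394830-41396088) were the widest, at 1238 and 1259 bp. Setting aside both the Up list and the oschz1-1 overlap, 764 end peaks (61.3%, 58.6 to 64.0) were in neither, against 55.6% (54.6 to 56.6) of other peaks.

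Peaks next to the 2 Mb limit are given as a description. Just inside it lay chr11:27015296-27015528 (233 bp), chr12:1997651-1998400 (750 bp, on an oschz1-1 peak) and chr2:33880123-33880413 (291 bp), none of them in the Up list. Just outside lay chr4:33500237-33500591 (355 bp, in the Up list), chr4:33497378-33497642 (265 bp, not in it) and chr1:2010101-2010471 (371 bp, in it).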

How the data were processed

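Per the study's methods, the authors aligned read pairs to MSU7 with Bowtie2, removed pairs of low mapping quality and PCR duplicates with Samtools, and called peaks against input. The results text names MACS2 and the methods name SICER for this step. The 3 deposited lists (COM1, oschz1-1 and Up) hold 3 columns of positions and no values, and name no replicate. The methods give DiffBind at a false discovery rate of 0.05 for comparisons of samples without naming this pair, so that how the Up list was made is not known from them. The study states read totals per library, which were not used here, and the lists give no depth behind a peak.

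Starts were counted from 1. The 12 chromosomes were divided into 21 ends and 170 other windows of up to 2 Mb. Counts were fitted by quasi-Poisson, shares by quasi-binomial and natural-log widths by weighted least squares (statsmodels 0.14.6, Python 3.11.15). Two-sided p were adjusted by Benjamini-Hochberg over 6 fits. The fits were also run on simulated data, but shares and widths were drawn there without added spread between windows. That part of their error was therefore not tested. Gaps that cross a limit of an end (21) were left out. Overlap meant at least 1 bp. Regions named are the 5 widest peaks, the outermost of each base-1 end, the ends with most and fewest peaks (2 each), the densest 100 kb, the longest gap, 3 peaks on either side of the 2 Mb limit and the 3 widest oschz1-1 peaks. Others named were picked after their values were seen. Members, limits and lists were chosen with earlier results of these data known. Alternatives were other end sizes, overlaps, width and gap limits, comparison windows and each chromosome left out.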

Additional observations from a re-analysis of the deposited data

How the results depend on the processing

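Of 124 alternatives for the 6 fitted ratios of ends to other windows, 102 kept the direction and the side of the threshold (unadjusted p of 0.05) and 22 did not. The cause was not tested. Among those kept, requiring 50% of the COM1 peak to be covered left the Up ratio at 0.77 (0.67 to 0.88), identical to the main fit. That alternative changed nothing and so adds no check. Peak density went from 0.97 to 1.03 for covered length and to 1.04 for peaks of at least the median width. Against belts from 2 to 4 Mb inside the same ends, the ratios were 1.01 for width, 0.87 for the Up share, 0.88 for gaps under 5 kb, 1.94 for overlap with oschz1-1 peaks and 2.00 for oschz1-1 peak density, the last past the threshold. With ends of 1 Mb, the ratio for gaps was 0.87, for oschz1-1 overlap 1.02 and for oschz1-1 density 0.83. With ends of 3 Mb the overlap was 1.45. With ends of 5 Mb gaps gave 1.12 (1.008 to 1.245), past the threshold, while the overlap gave 1.12 and oschz1-1 density 0.89. Requiring 50% of the COM1 peak to be covered gave 1.39 for the overlap, and counting the ends left out as ends gave 1.63 for oschz1-1 density, past the threshold. Leaving out each chromosome in turn gave 1.46 to 1.87 for the overlap, past the threshold in 6 of 12, and ended or made no call for the other 5 ratios. The far ends with more peaks in the outermost 0.5 Mb went from 12 to 11 without their outermost peak. No paired analysis was possible because no replicate is named in the peak lists. The analysis rests on 1 list per genotype. Read totals and signal per library were not used here, so that neither the error between libraries nor peaks missed at low coverage was measured, and a far end was set by the last listed peak, not by the end of the sequence.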
